A study of Mus musculus with 17 samples.

Results

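The genes described here encode the proteins of the cornified envelope and the enzymes that join them. They are 46 of the 34140 genes in the deposited expression table, of which 19114 are protein coding. They were taken by name: every gene listed as protein coding whose symbol begins with Sprr or Lce, together with Rptn, Flg, Flg2, Hrnr, Lor, Ivl, Tgm1, Tgm3, Cnfn and Crct1. The rule itself uses no expression value, but it was set with earlier results of these data known. By family they are 2 Sprr1 genes, 11 Sprr2 genes, Sprr3 and Sprr4, 14 Lce1 genes, 6 Lce3 genes, Lce6a, 4 fused S100 genes (Flg, Flg2, Hrnr and Rptn), Lor and Ivl, Cnfn and Crct1, and the transglutaminases Tgm1 and Tgm3. The table lists Sprr2j-ps as protein coding although its symbol marks a pseudogene.

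All libraries were made from skin of C57/BL6j mice. Control skin was sampled at day 0 (2 libraries), day 3 (2), day 6 (2) and day 9 (3) after injury, and skin of mice given ionizing radiation at day 3 (3), day 6 (2) and day 9 (3), 17 libraries in all. No library is labelled as irradiated skin at day 0, and the sources used here do not give the radiation dose, the age of the mice or whether day 0 skin was wounded. The labels do not say that the libraries of a group came from separate animals, so every p below measures the spread between these samples, which may be technical.

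The cornified envelope replaces the plasma membrane of a keratinocyte as it leaves the living layers of the epidermis. Transglutaminases first cross-link a scaffold that includes involucrin (Ivl), then fill it with loricrin (Lor), small proline-rich proteins (Sprr) and late cornified envelope proteins (Lce), while filaggrin (Flg) and its relatives bundle keratin filaments beneath it. Most of these genes sit side by side in the epidermal differentiation complex. Sprr genes and LCE3 genes are known from injured or inflamed skin, and Lor, Flg and Lce1 genes from resting skin.

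Of the 46 genes, 43 lay on chromosome 3 of GRCm38 (mm10) between positions 92080271 and 93399442, a stretch of 1.319 Mb from Lor to Rptn that holds 54 protein-coding genes of the table. Tgm3 lies on chromosome 2 (130012349 to 130050399), Tgm1 on chromosome 14 (55700009 to 55713492) and Cnfn on chromosome 7 (25367620 to 25369724). The Sprr2 genes, the Lce1 genes and the Lce3 genes are families of close copies, and the sources used here do not say how reads matching several copies were counted, so values of single copies are less certain than those of their family. Sprr2a1 (92215799 to 92221911) and Sprr2a2 (92215920 to 92256724) also overlap on the same strand.

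Since the Sprr2 and Lce3 genes passed as higher after injury while Lor did not pass and Lce1m was lower at day 9, the 200 bases before the transcription start are printed for these and for Sprr1a and Rptn, from the RefSeq promoters of GRCm38.p6 (43 of the 46 genes matched). They are written 5′ to 3′ on the gene's strand. Capitals mark matches, on either strand, to the AP-1 site TGANTCA, to the TATA box TATAAA and to the octamer ATGCAAAT, whose reverse complement is ATTTGCAT, and no 2 of these matches overlap.
Sprr1a (chr3:92485882-92486081, minus strand): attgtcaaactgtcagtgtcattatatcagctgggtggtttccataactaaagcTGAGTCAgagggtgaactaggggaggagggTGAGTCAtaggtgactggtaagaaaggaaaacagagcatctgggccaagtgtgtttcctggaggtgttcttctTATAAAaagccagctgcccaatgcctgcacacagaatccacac
Sprr2d (chr3:92338940-92339139, plus strand): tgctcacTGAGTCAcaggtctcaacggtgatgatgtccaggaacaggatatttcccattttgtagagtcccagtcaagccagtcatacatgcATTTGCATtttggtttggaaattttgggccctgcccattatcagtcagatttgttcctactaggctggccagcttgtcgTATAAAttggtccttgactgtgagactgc
Sprr2i (chr3:92407791-92407990, plus strand): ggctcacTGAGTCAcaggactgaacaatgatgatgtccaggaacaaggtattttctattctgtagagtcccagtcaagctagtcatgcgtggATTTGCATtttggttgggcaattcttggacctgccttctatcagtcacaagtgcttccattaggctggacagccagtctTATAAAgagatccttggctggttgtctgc
Lce3e (chr3:92966861-92967060, plus strand): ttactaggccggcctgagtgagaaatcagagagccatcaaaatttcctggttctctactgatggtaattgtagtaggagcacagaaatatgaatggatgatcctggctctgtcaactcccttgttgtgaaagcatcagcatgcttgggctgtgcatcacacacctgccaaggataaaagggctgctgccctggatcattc
Rptn (chr3:93393499-93393698, plus strand): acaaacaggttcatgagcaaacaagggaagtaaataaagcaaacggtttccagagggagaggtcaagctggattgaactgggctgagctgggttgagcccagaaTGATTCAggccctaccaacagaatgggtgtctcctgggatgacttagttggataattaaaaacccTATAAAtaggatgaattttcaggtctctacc
Lor (chr3:92083143-92083342, minus strand): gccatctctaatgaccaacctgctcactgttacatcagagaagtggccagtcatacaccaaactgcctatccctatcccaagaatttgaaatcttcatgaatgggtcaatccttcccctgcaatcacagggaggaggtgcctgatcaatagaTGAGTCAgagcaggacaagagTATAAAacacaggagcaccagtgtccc
Lce1m (chr3:93019062-93019261, minus strand): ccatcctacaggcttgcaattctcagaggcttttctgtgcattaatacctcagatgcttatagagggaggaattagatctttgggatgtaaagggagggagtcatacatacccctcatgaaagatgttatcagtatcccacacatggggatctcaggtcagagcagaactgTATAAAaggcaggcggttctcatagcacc
Sprr2d and Sprr2i carry the same arrangement, with the AP-1 letters 193 bases, the octamer 108 bases and the TATA box 29 bases before the start (counted from the first base of each match). In the 250 bases before the start, the octamer stood in 7 of 10 Sprr2 genes (Sprr2b, Sprr2d, Sprr2e, Sprr2f, Sprr2h, Sprr2i and Sprr2k) and in no other family, against 1.6% of the 32851 RefSeq promoters of the same length. The AP-1 letters stood in 14 of 43 members (32.6%, against 6.75% of all promoters): both Sprr1 genes, 7 of 10 Sprr2 genes, Lor, Ivl, Flg, Flg2 and Rptn, but none of 13 Lce1 and none of 6 Lce3 genes. The TATA letters stood in 20 members (46.5%, against 12.4%). For Lce3e and Lce6a the match was on the opposite strand, 243 and 218 bases before the start. For the other members it lay 27 to 53 bases before the start. Close copies such as the Sprr2 genes were counted as separate promoters in all these shares. Sprr2a1, Sprr2a2 and Sprr2a3 held none of the 3 motifs, but for Sprr2a2 the RefSeq start lies 34727 bases from the start in the deposited table, and for Sprr2a3 113 bases before it. These are matches of letters in a window, with no measurement of binding.

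Library depth was even, with 25440773 to 30797409 fragments per library recovered from the values, and all 46 genes passed the filter on low values. Levels are in FPKM, which divide a gene's fragments by its length and by the library's total. Of these 46 genes, 44 gave whole fragments throughout (tolerance 0.01 fragments). Keratin 5, a marker of the basal epidermis and so of the labelled tissue, stood at 540.0 to 2020 FPKM in every library. The day 0 libraries stood apart from the rest. Mitochondrial genes made up 31.8% and 21.7% of their FPKM, against 8.33% to 12.6% elsewhere, and 5 skeletal muscle markers (Acta1, Myh4, Ckm, Tnnt3 and Actn3) summed to 15998 and 13494 FPKM, against 856 to 3339. Their 6 basal epidermis markers summed to 3165 and 1873 FPKM, against 3904 to 14481. The part of these differences in the comparisons with day 0 was not tested, and in whole skin fewer keratinocytes cannot be told apart from less RNA of a gene per cell.

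At day 0 the envelope genes were dominated by the products of resting skin. The 14 Lce1 genes made up 56.7% and 58.3% of the summed FPKM of the 46 genes in the day 0 libraries, and Lor and Ivl together 25.6% and 24.5%. The highest single genes there were Lor, at 1099 and 478 FPKM, and Lce1m, at 907 and 310 FPKM. The 11 Sprr2 genes together made up 0.224% and 0.286%, and the 6 Lce3 genes 0.221% and 0.434%. All 46 genes together were 1.01% and 0.531% of the FPKM of the library, so the total differed between the day 0 libraries while its make-up was nearly the same.

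**Figure D1:**
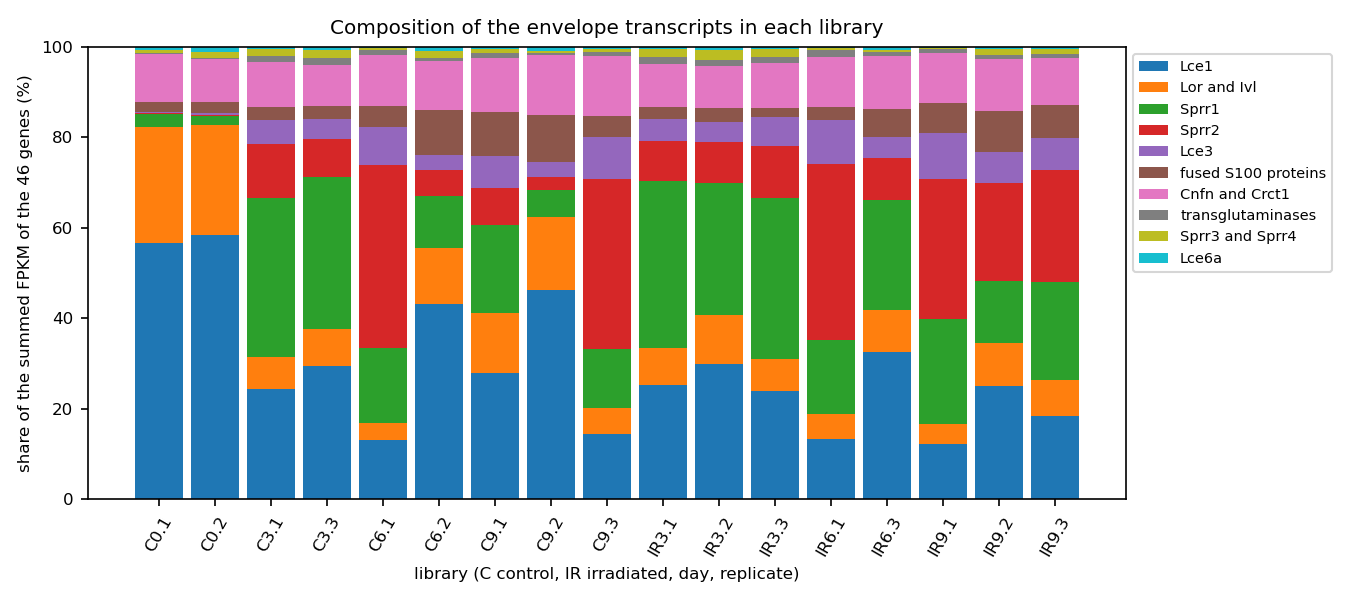
Stacked bars give, for each of the 17 libraries (x axis: C control, IR irradiated, day, replicate), the share in percent of the summed FPKM of the 46 genes taken by each family. Lce1 takes 56.7% and 58.3% at day 0 and less in every later library, and Sprr2 takes 40.6% in control day 6 replicate 1, 37.6% in control day 9 replicate 3 and 38.9% in irradiated day 6 replicate 1.

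Control skin after injury was compared with control skin at day 0 to ask how the envelope genes change as a wound heals without radiation. Sprr1, Sprr2, Lce3, Rptn, Cnfn and both transglutaminases rose, while Lor, Flg2, Hrnr, Crct1, Lce6a, Sprr4 and most Lce1 genes passed in neither direction. At day 3, 22 of the 46 genes were higher and 0 lower (limma on log2(FPKM + 1), Benjamini-Hochberg adjusted p under 0.05). Among all 15271 genes tested, 38.1% passed, 25.8% higher and 12.4% lower. At day 6, 30 were higher and 0 lower, against 35.3% of all genes (21.1% higher, 14.2% lower). At day 9, 24 were higher and 1 lower, against 48.4% of all genes (30.4% higher, 18% lower). The median log2 fold change of the 46 genes was 1.69, 2.69 and 1.98 at days 3, 6 and 9, beside 0.16, 0.11 and 0.14 over all genes. These comparisons share the 2 day 0 libraries. The split over all genes depended on the scaling: of the genes that passed at control days 3, 6 and 9, 67.6%, 59.7% and 62.8% were higher, against 52.1%, 34.8% and 57.5% with FPKM scaled to nuclear genes and 46.9%, 43.6% and 51% with quantile normalization. Sprr3 had no fragment at day 0, and with it placed at the limit that 3 fragments over the group allow, the medians were 1.88, 2.78 and 2.10.

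**Figure D2:**
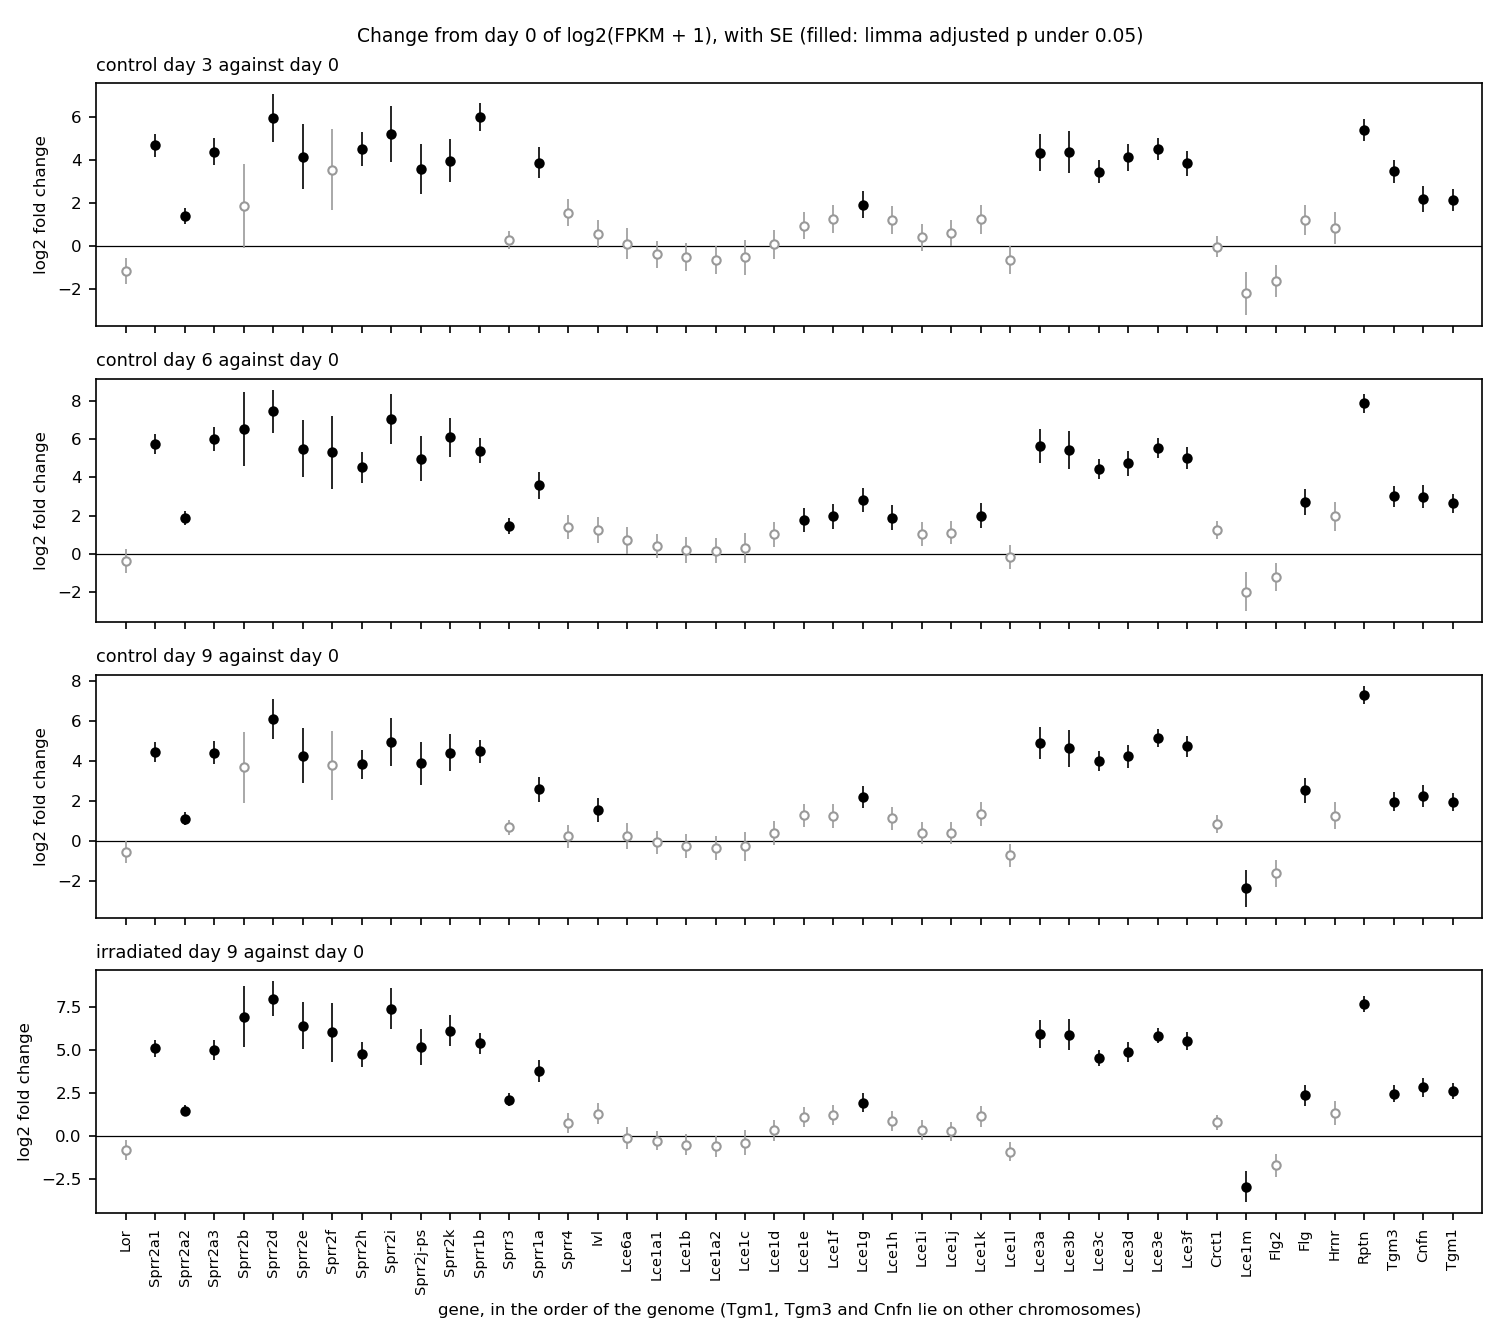
Each point is the log2 fold change of log2(FPKM + 1) against control day 0, with its SE, for the 46 genes in genome order (x axis), in control skin at days 3, 6 and 9 and in irradiated skin at day 9. Filled points passed at an adjusted p under 0.05, and the Sprr2, Sprr1 and Lce3 blocks stand well above 0. The Lce1 block runs unevenly between values near 0 at its ends and a highest value at Lce1g, with Lce1m below 0.

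The Sprr1 genes encode precursors that keratinocytes also make under stress. Sprr1a stood at 105 and 31.6 FPKM at day 0, 1026 and 718 at day 3, 1168 and 432 at day 6, and 494, 192 and 459 at day 9. Sprr1b stood at 19.9 and 7.03 FPKM at day 0, 899 and 725 at day 3, 849 and 350 at day 6, and 418, 180 and 320 at day 9. Every control library after injury lay above both day 0 libraries for both genes, and the day 9 libraries lay below the day 3 libraries. The log2 fold change at day 3 was 5.96 (SE 0.651) for Sprr1b, with a limma adjusted p of 6.17e-05, and 3.87 (SE 0.696) for Sprr1a, with 0.00112. From day 3 to day 9 in control skin the changes were -1.48 (SE 0.594) for Sprr1b and -1.28 (SE 0.636) for Sprr1a, which did not pass (limma adjusted p 0.102 and 0.177).

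The 11 Sprr2 genes went from 9.98 and 5.83 FPKM in sum at day 0 to 645 and 357 at day 3, 5004 and 401 at day 6, and 379, 178 and 2233 at day 9. At day 3, 9 of 11 passed as higher, at day 6 all 11, and at day 9 again 9 of 11, with median log2 fold changes of 4.14, 5.74 and 4.28. Sprr2d, the most abundant member, stood at 4.10 and 1.33 FPKM at day 0, 288 and 151 at day 3, 2072 and 175 at day 6, and 166, 83.1 and 954 at day 9. All its later libraries lay above day 0, but the day 6 libraries differed 11.8-fold from each other and the day 9 libraries up to 11.5-fold. Its log2 fold change was 5.93 (SE 1.11) at day 3, 7.45 (SE 1.11) at day 6 and 6.11 (SE 1.02) at day 9, with limma adjusted p of 0.00148, 0.000408 and 0.000437. Sprr2a1, Sprr2a2 and Sprr2a3 rose as well, by 4.67, 1.38 and 4.37 on the log2 scale at day 3. The 1 FPKM added before taking logs understates Sprr2a2, which went from 0.0135 and 0.0115 FPKM (1 fragment each) to 1.72 and 1.55. Sprr2b and Sprr2f passed at day 6 but not at days 3 or 9, with values of 629 and 12.9 FPKM and of 333 and 8.51 FPKM in the day 6 libraries. Their day 6 calls were lost under 6 and 8 of the alternative settings (adjusted p 0.0555 to 0.306 and 0.0552 to 0.343), the leaving out of control day 6 replicate 1 and of either day 0 library among them. At day 3 the calls of Sprr2e and Sprr2j-ps were lost under 10 and 8 settings (adjusted p 0.0518 to 0.303 and 0.0571 to 0.21), each of the 4 libraries left out among them. The highest value of each of the other 10 Sprr2 genes over the 17 libraries ran from 5.27 FPKM (Sprr2a2) to 634 FPKM (Sprr2i).

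The 6 Lce3 genes, whose human counterparts are known from injured skin, all passed as higher on each of the 3 days, with median log2 fold changes of 4.22, 5.22 and 4.69. Lce3e stood at 0.648 and 0.773 FPKM at day 0, 46.5 and 30.1 at day 3, 144 and 42.2 at day 6, and 57.8, 48.9 and 74.4 at day 9, so no later library came near day 0. Its log2 fold change at day 3 was 4.49 (SE 0.501), with a limma adjusted p of 7.15e-05. The lowest value among the 6 genes at day 3 was Lce3c at 3.45 (SE 0.529), which had the highest day 0 level of the family (5.89 and 3.67 FPKM). Their summed level, 9.83 and 8.84 FPKM at day 0, reached 1020 FPKM in control day 6 replicate 1 and 216 FPKM in replicate 2.

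The Lce1 genes, which lie between the Sprr and Lce3 genes except for Lce1m, did not move as a block. Their sum was 2523 and 1190 FPKM at day 0, 1326 and 1259 at day 3, 1617 and 2933 at day 6, and 1307, 2843 and 863 at day 9, and every later group overlapped day 0 or lay between its libraries. Lce1g alone passed as higher at day 3, with 17.2 and 18.6 FPKM at day 0 and 75.0 and 65.2 at day 3 (log2 fold change 1.91, SE 0.626, limma adjusted p 0.0300). That call was lost with no filter on low values (adjusted p 0.065) and without each of the 4 libraries compared (0.0752 to 0.127). At day 6, Lce1e, Lce1f, Lce1g, Lce1h and Lce1k passed as higher, with log2 fold changes from 1.76 to 2.83. The calls of Lce1e, Lce1f, Lce1h and Lce1k were lost under 8, 6, 7 and 6 alternative settings (adjusted p 0.0502 to 0.19), each of the 4 libraries left out and FPKM scaled to nuclear genes among them. Along the chromosome the day 6 change went from 0.44 at Lce1a1, 0.20 at Lce1b and 0.32 at Lce1c, through 1.76 at Lce1e, 1.97 at Lce1f and 2.83 at Lce1g, to -0.15 at Lce1l, and to -1.95 at Lce1m beyond the Lce3 genes. The fall from Lce1g to Lce1l was uneven, since Lce1h and Lce1k passed while Lce1i and Lce1j between them did not. Lce1g and Lce1k, which had the largest changes, stood at 12.4 to 18.6 FPKM at day 0, and Lce1a1 and Lce1b at 145 to 334. Lce1m is the only member that passed as lower: 907 and 310 FPKM at day 0, 113 and 118 at day 3, 66.6 and 278 at day 6, and 133, 237 and 34.1 at day 9. Its log2 fold change at day 9 was -2.36 (SE 0.914), with a limma adjusted p of 0.0494, and 8 of the alternative settings lost the call (adjusted p 0.0519 to 0.311).

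Of the fused S100 proteins, repetin (Rptn), which binds calcium and keratin filaments, had the largest log2 change of any member at days 6 and 9 on the scale of log2(FPKM + 1), which understates members near 0 at day 0 such as Sprr2b and Sprr2k. It stood at 0.958 and 1.44 FPKM at day 0, 111 and 74.2 at day 3, 496 and 524 at day 6, and 376, 472 and 235 at day 9, with no overlap between day 0, day 3 and the later days. Its log2 fold change was 5.39 (SE 0.506) at day 3, 7.87 (SE 0.506) at day 6 and 7.31 (SE 0.462) at day 9, with limma adjusted p of 3.46e-05, 1.00e-05 and 1.82e-06. Flg, the profilaggrin gene, rose later: 5.36 and 5.74 FPKM at day 0, 15.3 and 13.3 at day 3, 32.9 and 54.1 at day 6, and 37.0, 62.6 and 22.0 at day 9. It passed at day 6 (log2 fold change 2.72, SE 0.688, limma adjusted p 0.00913) and at day 9 (2.54, SE 0.628, adjusted p 0.00540), but not at day 3 (1.22, adjusted p 0.182). Flg2, which lies next to Flg in the genome, had the opposite sign: 79.7 and 32.1 FPKM at day 0, 15.3 and 16.4 at day 3, 12.9 and 36.5 at day 6, and 15.9, 34.6 and 7.23 at day 9. No Flg2 comparison with day 0 passed in control skin (log2 fold change -1.62 at day 3, -1.18 at day 6 and -1.60 at day 9, limma adjusted p 0.0666 to 0.234). Hrnr (hornerin) ranged from 10.2 to 75.8 FPKM in control skin and did not pass on any of the 3 days.

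Lor, the glycine-rich bulk protein of the envelope, stood at 1099 and 478 FPKM at day 0, 332 and 315 at day 3, 424 and 742 at day 6, and 535, 831 and 285 at day 9. Only the day 3 libraries lay wholly below day 0, and no day passed (log2 fold change -1.16 at day 3, SE 0.613, limma adjusted p 0.155). Ivl, the early scaffold protein, stood at 39.1 and 21.9 FPKM at day 0, 52.8 and 36.5 at day 3, 48.3 and 105 at day 6, and 92.7, 160 and 45.5 at day 9. It passed at day 9 (log2 fold change 1.55, SE 0.597, limma adjusted p 0.0476), and 10 of the alternative settings lost that call (adjusted p 0.0503 to 0.244).

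The cross-linking enzymes rose with the Sprr genes. Tgm1, the membrane-bound transglutaminase of keratinocytes, stood at 11.2 and 4.76 FPKM at day 0, 41.0 and 31.9 at day 3, 89.6 and 29.4 at day 6, and 28.7, 21.2 and 52.6 at day 9. Tgm3, the cytosolic enzyme, stood at 1.97 and 1.65 FPKM at day 0, 31.4 and 28.3 at day 3, 36.2 and 12.8 at day 6, and 16.4, 8.07 and 7.61 at day 9. Neither gene overlapped day 0 on any later day, and Tgm3 was lower at day 9 than at day 3 in every control library. Log2 fold changes at day 3 were 2.15 (SE 0.507) for Tgm1 and 3.46 (SE 0.546) for Tgm3, with limma adjusted p of 0.00572 and 0.000506. From day 3 to day 9 Tgm3 changed by -1.47 (SE 0.498), which did not pass (limma adjusted p 0.0587). Cnfn (cornifelin) stood at 63.6 and 31.7 FPKM at day 0, 251 and 171 at day 3, 698 and 192 at day 6, and 182, 144 and 402 at day 9, and passed on each day (log2 fold change 2.18 at day 3, SE 0.609, limma adjusted p 0.0141). Crct1 did not pass on any day, with 148 to 695 FPKM over the 17 libraries, nor did Sprr4 (16 to 102 FPKM) or Lce6a (6.08 to 58.8 FPKM).

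**Figure D3:**
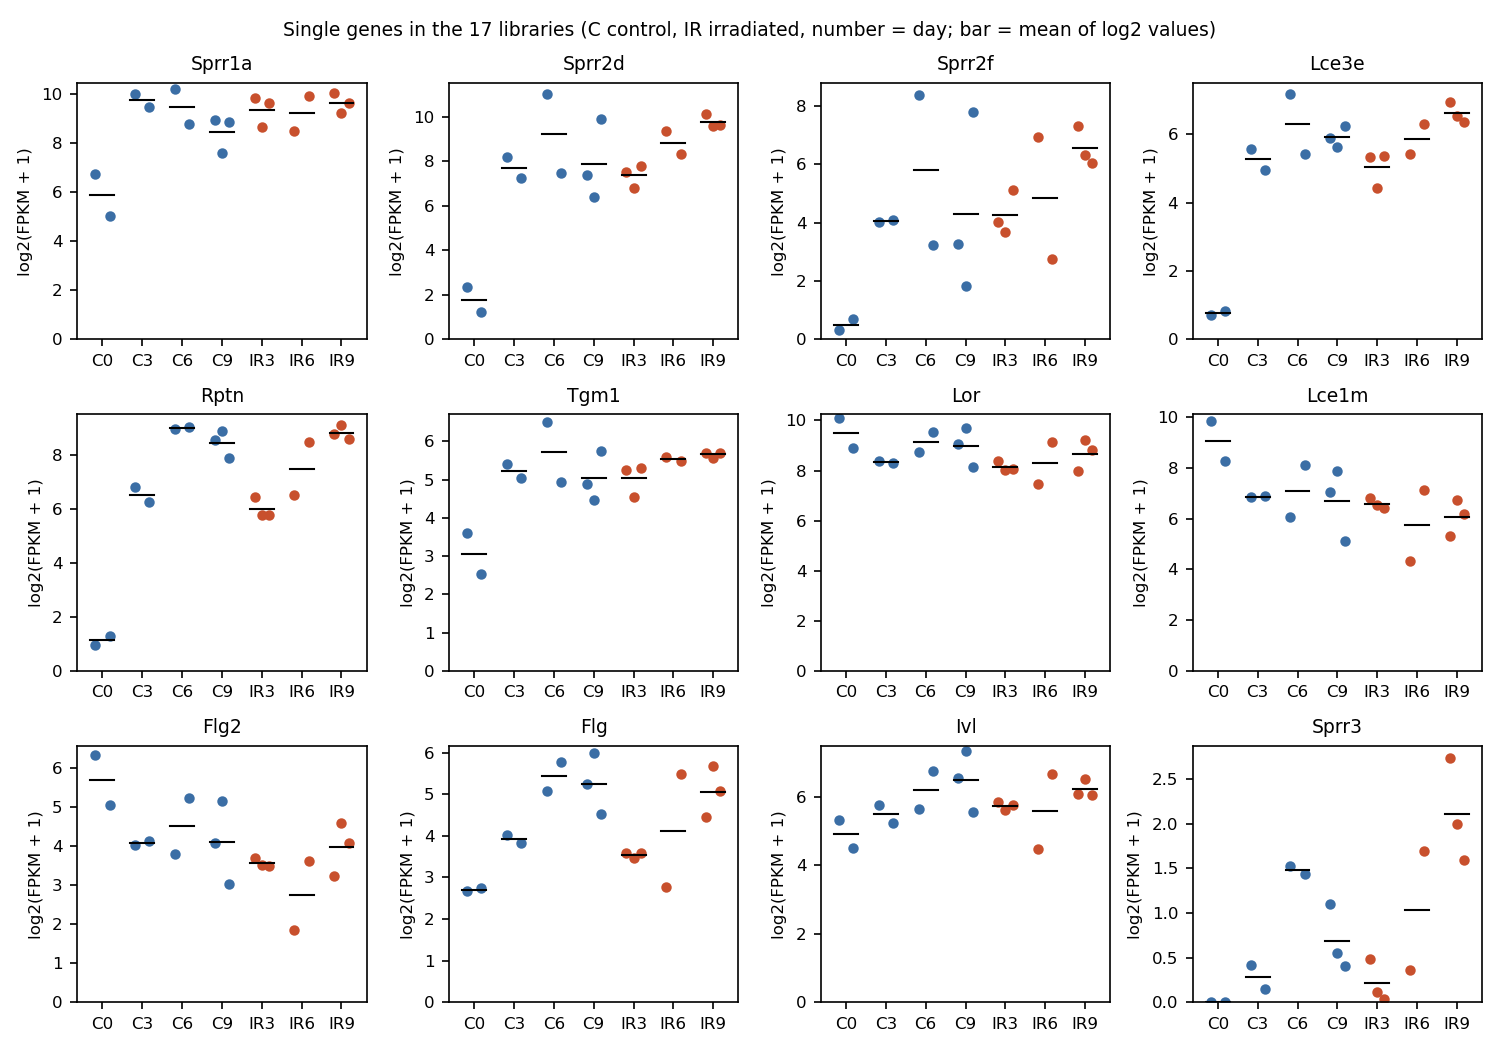
Points give log2(FPKM + 1) of 12 genes in each of the 17 libraries by group (x axis: C control, IR irradiated, number = day), with a bar at the mean of each group, on axes that differ between panels. Sprr1a, Sprr2d, Lce3e, Rptn and Tgm1 are lowest at day 0, Lor, Lce1m and Flg2 are highest there, and Sprr3 stays under 6 FPKM throughout.

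The make-up of the envelope transcripts differed between days. Sprr1 went from 2.81% and 1.90% of the summed FPKM of the 46 genes at day 0 to 35.3% and 33.7% in control skin at day 3, and was 19.4%, 6.05% and 13.1% at day 9. Lor and Ivl went from 25.6% and 24.5% to 7.06% and 8.21% at day 3 and were 13.4%, 16.1% and 5.56% at day 9. The 4 fused S100 genes held 2.26% and 2.42% at day 0 and 9.77%, 10.4% and 4.68% at day 9. These shares are descriptions with no test.

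Between days 3 and 9, few members passed in either arm. In control skin 1 member, Rptn, was higher and 0 lower, against 18.2% of all genes (8.02% higher, 10.2% lower), with a log2 fold change of 1.92 (SE 0.462, limma adjusted p 0.0153). The higher share of all genes that passed was 44%, against 59.5% with FPKM scaled to nuclear genes and 56.3% with quantile normalization. In irradiated skin Rptn and Sprr3 were higher and 0 members lower, against 0.963% of all genes (0.38% higher, 0.583% lower). Rptn stood at 84.5, 54.0 and 52.8 FPKM in irradiated skin at day 3 and at 433, 540 and 386 at day 9 (log2 fold change 2.83, SE 0.413, limma adjusted p 0.0127). The Rptn call was lost in control skin without control day 3 replicate 3 (adjusted p 0.162) or control day 9 replicate 2 (0.0584), and in irradiated skin without irradiated day 3 replicate 2 (0.0538) or replicate 3 (0.0516) or irradiated day 9 replicate 2 (0.0746). The Sprr3 call in irradiated skin was lost under 6 settings (adjusted p 0.0577 to 0.103): with no filter on low values, without each irradiated day 3 library and without irradiated day 9 replicate 1 or 2. Fitted on the compared groups alone, 3 members passed in control skin and 16 in irradiated skin. The shares of all genes given above are those of the fit of all 17 libraries, so they cannot be set beside these counts.

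Irradiated skin was compared with control skin of the same day to ask whether radiation changes these genes during healing. Averaged over days 3, 6 and 9, 0 of 46 members passed in limma, against 6.93% of all genes (4.36% higher, 2.57% lower), 0 at an unadjusted p under 0.05, and 0 in limma-voom on recovered fragments. Limma-voom was run only on genes with whole fragments in every library, which left out Tgm1 and Flg2 and kept 44 members. Of all genes that passed, 62.9% were higher, and 49.9% with quantile normalization. The median log2 difference of the 46 members was -0.40, ranging from -0.80 to 0.75. On this average 7 members passed as lower without irradiated day 6 replicate 3 (Lce1g, Lce1h, Lce1i, Lce1k, Flg, Rptn and Lce6a), and 3 without control day 6 replicate 2 (Sprr2a1, Sprr2a2 and Sprr2a3).

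At day 3, 0 members passed in limma, against 1.85% of all genes (1.56% higher, 0.288% lower), 0 at an unadjusted p under 0.05, and 0 in limma-voom. Log2 differences ranged from -1.0 for Sprr2a3 to 0.26 for Sprr2j-ps, and 3 of 46 were positive. Sprr1a stood at 909, 401 and 789 FPKM in irradiated and 1026 and 718 in control libraries, and Sprr2d at 183, 109 and 222 against 288 and 151. For both genes the groups overlapped. Sprr1b stood at 861, 417 and 814 FPKM in irradiated libraries against 899 and 725, Lor at 334, 257 and 265 against 332 and 315, and Ivl at 56.3, 47.4 and 52.8 against 52.8 and 36.5. Tgm1 stood at 37.3, 22.3 and 38.5 FPKM against 41.0 and 31.9, Tgm3 at 31.3, 14.6 and 21.8 against 31.4 and 28.3, and Cnfn at 210, 113 and 220 against 251 and 171. These 6 genes overlapped between the arms, whereas Flg, at 11, 10.0 and 11 FPKM against 15.3 and 13.3, did not. For 17 of 46 members, every irradiated library lay below every control library, which holds for 25.1% of all genes, and for 0 members above (15.9%). Among the 17 were Sprr2a1, Sprr2a2 and Sprr2a3, and the last of these passed as lower when only the compared groups were fitted (adjusted p 0.0407).

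At day 6 all 46 log2 differences were negative, with a median of -0.92 and a range from -1.82 for Sprr2k to -0.18 for Tgm1, beside a median of 0.02 over all genes. Some of these signs rested on control day 6 replicate 1. Both irradiated libraries lay above control day 6 replicate 2 for members such as Sprr2d (645 and 320 against 175 FPKM) and Sprr2b (101 and 27.4 against 12.9). The same held for Lce3a (50.4 and 25.7 against 22.2 FPKM) and Tgm1 (47.1 and 43.7 against 29.4). In limma 0 members passed, against 0.275% of all genes (0.151% higher, 0.124% lower), 9 had an unadjusted p under 0.05, and 0 passed in limma-voom. The 2 irradiated libraries stood far apart from each other. Rptn stood at 89.0 and 350 FPKM in irradiated and 496 and 524 in control skin (log2 difference -1.52, SE 0.506, limma adjusted p 0.210). Flg stood at 5.84 and 43.5 FPKM against 32.9 and 54.1, Ivl at 21.4 and 99.4 against 48.3 and 105, and Lor at 176 and 564 against 424 and 742, and for these 3 genes the arms overlapped. Tgm1 stood at 47.1 and 43.7 FPKM in irradiated libraries, between the control values of 89.6 and 29.4, and Tgm3 at 7.23 and 22.7 against 36.2 and 12.8. Sprr1a stood at 363 and 973 FPKM against 1168 and 432, Sprr1b at 219 and 756 against 849 and 350, Sprr2d at 645 and 320 against 2072 and 175, and Cnfn at 200 and 352 against 698 and 192. These 4 genes overlapped between the arms too. For 8 members, Crct1, Flg2, Hrnr, Lce1j, Rptn, Sprr2a1, Sprr2a3 and Sprr4, both irradiated libraries lay below both control libraries, against 16.0% of all genes, and for 0 above (19.8%). Without irradiated day 6 replicate 3, 8 members passed as lower (Lce1g, Lce1h, Lce1i, Lce1j, Lce1k, Flg, Rptn and Lce6a), and without control day 6 replicate 2, 2 did (Sprr2a1 and Sprr2a2), so the count rested on which library of a pair was kept. A single library in a group is then assumed to vary like the other groups. The shares of all genes given for day 6 and for the average of days are those of the fit of all libraries.

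At day 9 the signs divided by family. All 11 Sprr2, both Sprr1 and all 6 Lce3 genes had positive log2 differences, with medians of 1.72, 1.04 and 0.74, and all 14 Lce1 genes negative ones, with a median of -0.22. The Lce1 signs rested on single libraries: without control day 9 replicate 2, 13 of the 14 were positive (median 0.21), and without irradiated day 9 replicate 1, 6 were (median -0.0059). The signs of the Sprr1, Sprr2 and Lce3 genes were the same whichever day 9 library was left out, with a median for Sprr2 from 0.85 without control day 9 replicate 2 to 2.54 without control day 9 replicate 3, and for Lce3 from 0.43 to 1.09 without the same 2 libraries. In limma 1 of 46 members passed, Sprr3 as higher, against 5.38% of all genes (2.33% higher, 3.05% lower), and 2 had an unadjusted p under 0.05. The higher share of all genes that passed was 43.3%, and 28.3% with FPKM scaled to nuclear genes. Sprr3, a proline-rich precursor best known from mucosal epithelia, stood at 5.64, 2.98 and 2.02 FPKM in irradiated and 1.14, 0.471 and 0.325 in control libraries, from 189, 100 and 73 fragments against 43, 17 and 11. The groups did not overlap, and the log2 difference was 1.42 (SE 0.334, limma adjusted p 0.0338). The call was lost without each of the 6 day 9 libraries in turn (adjusted p 0.0534 to 0.131), in limma-voom (0.0626), with no filter on low values (0.0653), with a pseudocount of 0.1 (0.0736) and with only the compared groups fitted (0.0623). In control skin Sprr3 stood at 0.334 and 0.11 FPKM at day 3 and 1.87 and 1.71 at day 6, and in irradiated skin at 0.399, 0.0838 and 0.028 at day 3 and 0.289 and 2.24 at day 6. Against day 0, where it had 0 fragments, irradiated skin at day 9 was at least 79.9-fold higher (3 fragments over the group as the limit, which covers counting error only).

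Most Sprr2 genes at day 9 stood high in control replicate 3 as well as in the irradiated libraries, as the most abundant of them shows. Sprr2d stood at 1104, 753 and 790 FPKM in irradiated skin and at 166, 83.1 and 954 in control skin (log2 difference 1.87, SE 0.910, limma adjusted p 0.247). Sprr2b stood at 131, 132 and 112 FPKM against 3.86, 0.907 and 249 (log2 difference 3.25, SE 1.58, limma adjusted p 0.247). Without control day 9 replicate 3, Sprr2b (5.37, adjusted p 0.0221) and Sprr2i (3.69, adjusted p 0.0401) passed as higher and Sprr3 did not (0.0728). Sprr1a stood at 1055, 602 and 799 FPKM against 494, 192 and 459, with no overlap (log2 difference 1.18, SE 0.569, limma adjusted p 0.243), and Sprr1b at 636, 401 and 617 against 418, 180 and 320. In all, 5 members lay higher in every irradiated than in every control library (Sprr3, Sprr1a, Sprr2a1, Lce3c and Lce3e), against 16.8% of all genes, and 0 lower (17.2%).

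Lor, Ivl, Flg, Rptn, Cnfn and both transglutaminase genes overlapped between the arms at day 9. Lor stood at 253, 601 and 445 FPKM in irradiated and 535, 831 and 285 in control skin, and Ivl at 65.8, 90.3 and 65.4 against 92.7, 160 and 45.5. Flg stood at 20.8, 49.8 and 32.6 FPKM against 37.0, 62.6 and 22.0, and Rptn at 433, 540 and 386 against 376, 472 and 235. Tgm1 stood at 50.8, 46.5 and 51.0 FPKM against 28.7, 21.2 and 52.6, Tgm3 at 11.3, 14.1 and 18.3 against 16.4, 8.07 and 7.61, and Cnfn at 358, 309 and 315 against 182, 144 and 402. Limma's adjusted p for these 7 genes ran from 0.401 to 0.870. The change of the irradiation difference from day 3 to day 9 was positive for 42 of 46 members, with a median of 0.73, but 0 passed in limma, as for all genes (0%), 1 had an unadjusted p under 0.05 (Sprr3), and 0 passed in limma-voom.

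**Figure D4:**
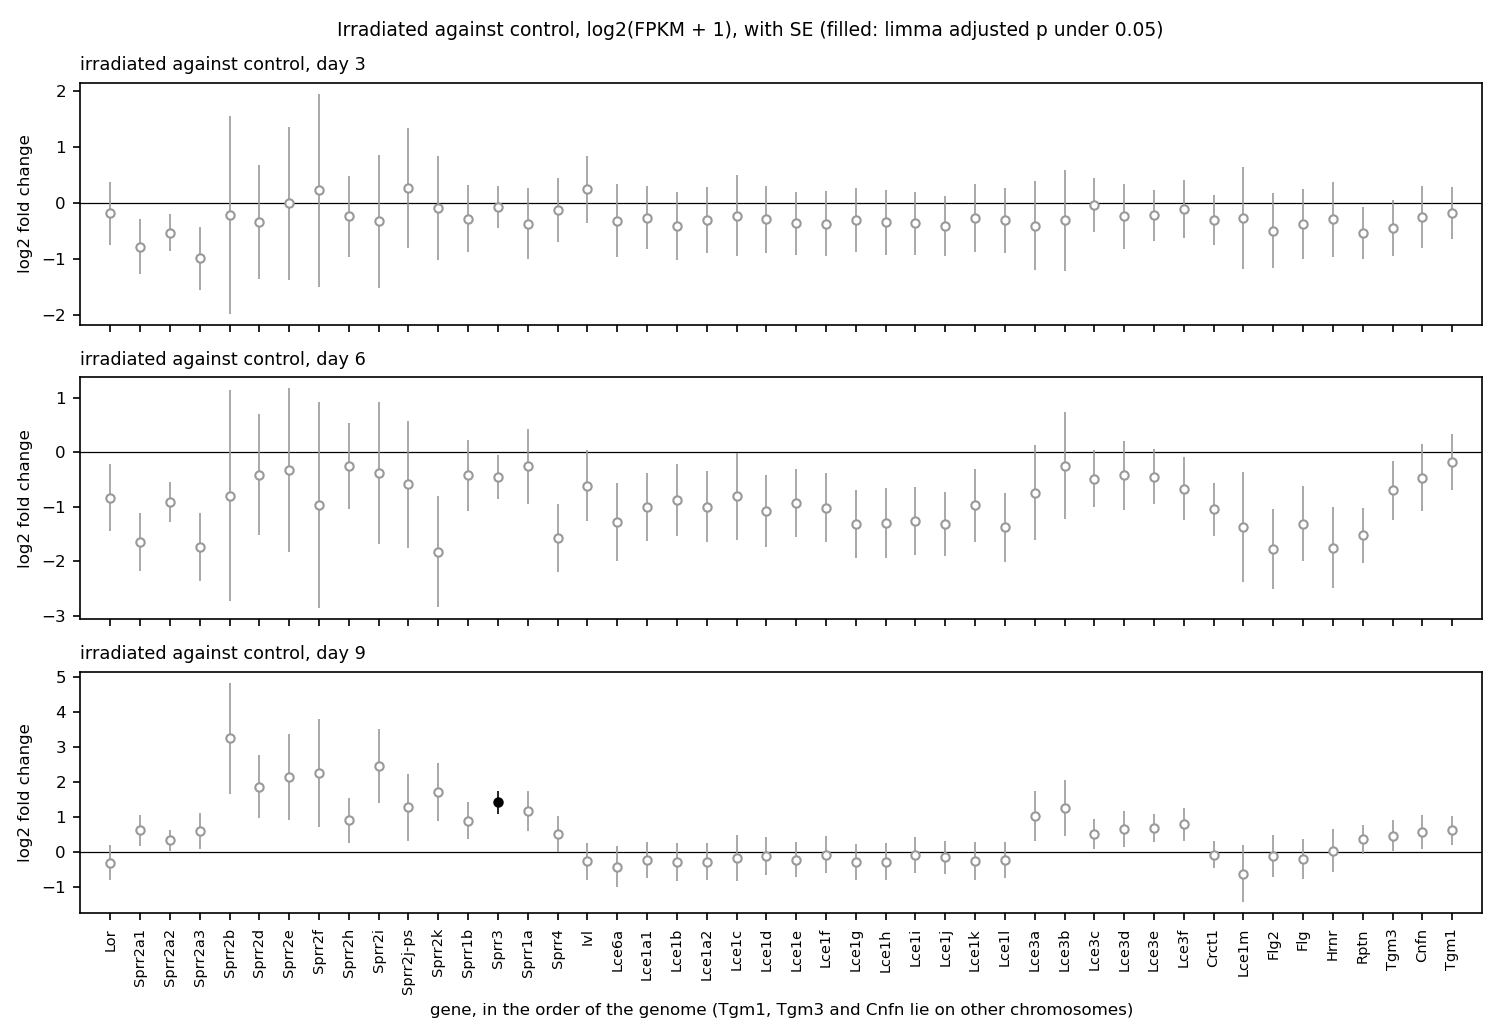
Each point is the log2 difference of irradiated from control skin, with its SE, for the 46 genes in genome order (x axis) at days 3, 6 and 9, on axes that differ between panels. All 46 points lie below 0 at day 6, and at day 9 the Sprr and Lce3 points lie above 0 and the Lce1 points just below it. Sprr3 at day 9 is the 1 filled point (adjusted p under 0.05).

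Irradiated skin at day 9 against control skin at day 0 gave 26 members higher and 1 lower, against 46.2% of all genes (29.6% higher, 16.6% lower), with a median log2 fold change of 2.23 (2.40 with Sprr3 at its limit), beside 0.15 over all genes. Of all genes that passed, 64.1% were higher, against 49.6% with FPKM scaled to nuclear genes and 47.1% with quantile normalization. All 11 Sprr2, both Sprr1, all 6 Lce3, both transglutaminase genes, Sprr3, Rptn, Flg, Cnfn and Lce1g passed as higher. Lce1m passed as lower, at 38.7, 105 and 72.5 FPKM against 907 and 310 (log2 fold change -2.97, SE 0.914, limma adjusted p 0.0187). Under the alternative settings the call of Lce1g was lost in 3, and those of Lce1m and Sprr2f in 2 each. The calls of Flg, Sprr2b, Sprr2e, Sprr2i, Sprr2j-ps and Sprr2k were lost in 1 each. This comparison shares the day 0 libraries with those of control skin above.

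Libraries of 1 group differed widely. In both arms at days 6 and 9, the library with the highest Sprr2 sum had the lowest Lce1 sum of its group, a pattern seen in the values and not tested. Control day 6 replicate 1 held 5004 FPKM of Sprr2 and 1617 of Lce1, and replicate 2 held 401 and 2933. Control day 9 replicate 3 held 2233 and 863 FPKM, and replicates 1 and 2 held 379 and 1307 and 178 and 2843. Irradiated day 6 replicate 1 held 1378 and 469 FPKM, and replicate 3 held 648 and 2301. In irradiated skin at day 9 the spread was smaller, with 2252, 1582 and 1608 FPKM of Sprr2 and 892, 1836 and 1201 of Lce1. At days 0 and 3 the sums of both families ran the same way between libraries in control skin (645 and 1326 FPKM against 357 and 1259 at day 3).

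The widest ranges within a group, leaving out groups with a library at 0, were those of Sprr2 genes. Between control day 9 replicates 3 and 2, Sprr2b differed 274-fold (249 and 0.907 FPKM) and Sprr2f 87.1-fold (223 and 2.56 FPKM), and Sprr2b differed 48.9-fold between the control day 6 libraries. All 11 Sprr2 and all 6 Lce3 genes were highest of the 17 libraries in control day 6 replicate 1, and 11 of 14 Lce1 genes were lowest in irradiated day 6 replicate 1. Over the 17 libraries, deviations from the group mean of log2(FPKM + 1) correlated with a median Pearson r of 0.967 among pairs of Lce1 genes, 0.821 among Sprr2 genes, 0.874 among Lce3 genes, 0.836 between Lce3 and Sprr2 genes, and -0.522 between Lce1 and Sprr2 genes (154 pairs). These are descriptions over libraries that the genes share, and reads that match several copies would raise r within a family.

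**Figure D5:**
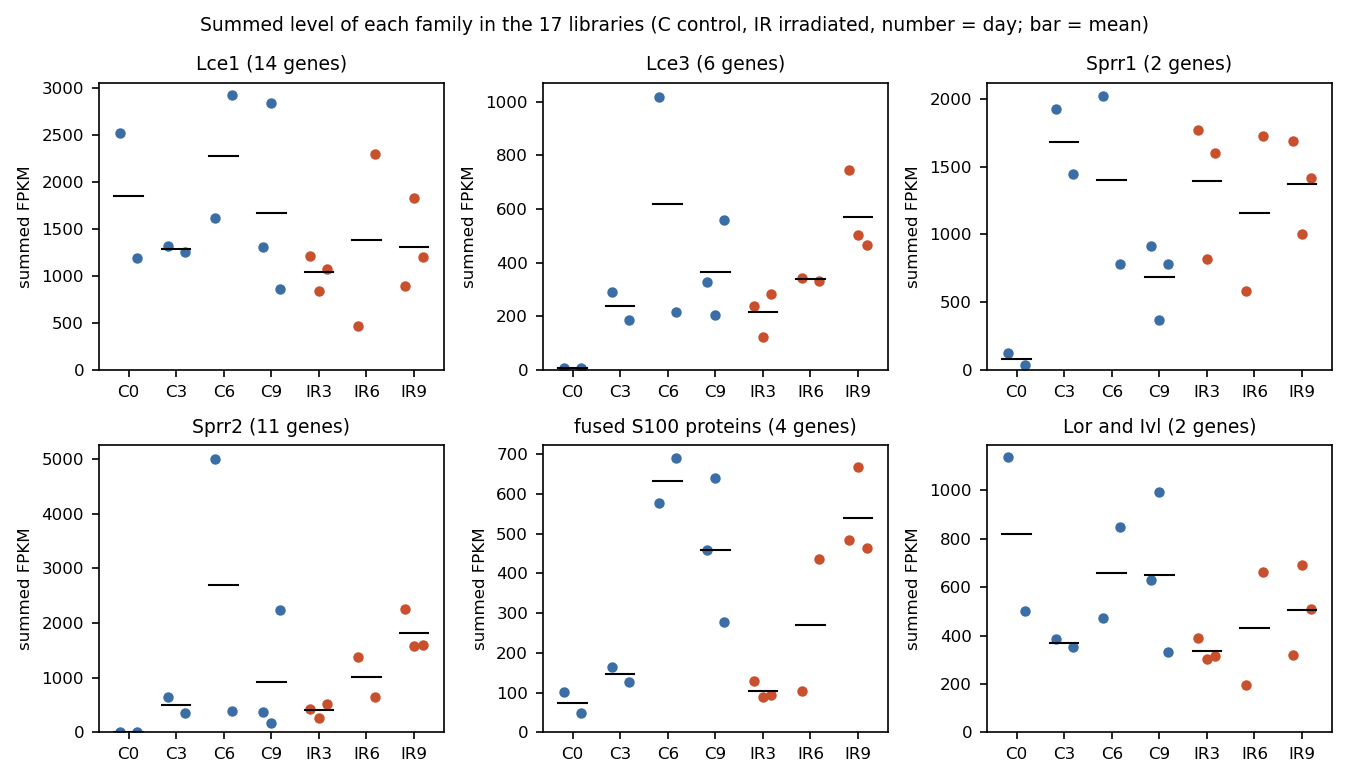
Points give the summed FPKM of 6 families in each of the 17 libraries by group (x axis: C control, IR irradiated, number = day), with a bar at the mean of each group, on axes that differ between panels. Sprr2 reaches 5004 FPKM in 1 control library at day 6 and 401 in the other, while Lce1 stands at 1617 and 2933 in the same libraries.

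Some marker lists of other cells moved with this split, and others kept no single direction. The neutrophil markers summed to 19757 FPKM in control day 6 replicate 1 and 2082 in replicate 2, to 8899 in control day 9 replicate 3 and 1071 and 300 in replicates 1 and 2, and to 9482 in irradiated day 6 replicate 1 and 4595 in replicate 3. Nearly all of that sum was S100a8 and S100a9, which stressed keratinocytes also make. The more specific neutrophil receptor Csf3r stood at 19.3 and 12.5 FPKM in the control day 6 libraries, at 5.96, 2.61 and 21.7 at control day 9, and at 17.1 and 8.06 in irradiated skin at day 6. Suprabasal markers ran the other way, with 2205 and 3949 FPKM in the control day 6 libraries, 3222, 4804 and 1606 at control day 9 and 508 and 1939 in irradiated skin at day 6. Inner root sheath markers of the growing hair follicle summed to 734 and 994 FPKM in control day 9 replicates 1 and 2 and to 61.9 in replicate 3. They summed to 67.9 to 156 in irradiated skin at day 9 and to at most 15.7 elsewhere. At day 6 they ran the other way at low levels, with 15.7 and 4.08 FPKM in control and 6.44 and 3.09 in irradiated libraries. Macrophage markers summed to 776 and 1208 FPKM in the control day 6 libraries, and to 1345, 1364 and 1861 at control day 9. The part of these cells in the day 9 and day 6 differences between arms was not tested.

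Other genes of the same pathway were counted over 3 lists. Beside them, 25.8%, 21.1% and 30.4% of all genes were higher at control days 3, 6 and 9 against day 0 and 29.6% in irradiated skin at day 9. Of 19 other precursors, cross-linking enzymes and processing proteins, 10 were higher and 0 lower at control day 3 against day 0, 13 and 1 at day 6, 9 and 1 at day 9, and 13 and 1 in irradiated skin at day 9, which is 47.4% to 68.4% of the list higher. Casp14, the caspase that processes filaggrin, was higher by 2.29 (SE 0.50), 3.92 (SE 0.50) and 3.20 (SE 0.46) on the log2 scale at control days 3, 6 and 9, and Csta1, a cystatin built into the envelope, by 3.13, 3.73 and 2.65. Tgm2, the tissue transglutaminase made by many cell types, was the 1 gene lower, with a log2 fold change of -1.75 (SE 0.365, limma adjusted p 0.00187) at control day 9.

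Of 18 genes for the lipid envelope, 11, 15 and 8 were higher at control days 3, 6 and 9 and 13 in irradiated skin at day 9 (44.4% to 83.3% of the list), and 0 lower. Sdr9c7, a dehydrogenase needed to bind ceramides to the envelope, was higher by 1.99, 2.57 and 1.75 on the log2 scale in control skin, and Cers3, the synthase of very long ceramides, by 1.90, 2.27 and 1.63. Of 31 regulators of differentiation, 15 were higher and 1 lower at control day 3, 10 and 1 at day 6, 8 and 2 at day 9, and 12 and 1 in irradiated skin at day 9. The share of regulators higher was 48.4%, 32.3% and 25.8% on the control days, so at day 9 it lay below that of all genes. The transcription factors Grhl3 (log2 fold changes 1.62, 1.83 and 1.46) and Ovol1 (1.55, 1.85 and 1.44) passed as higher on all 3 control days, as did Fosl2, a subunit of AP-1 (0.85, 1.12 and 1.32).

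Between the arms few genes of these lists passed in limma. At day 3 and day 6, 0 genes of the 3 lists passed, with 0 and 9 precursor genes, 0 and 8 lipid envelope genes and 3 and 4 regulators at an unadjusted p under 0.05. Of the precursor list 0 passed at day 9 and 0 on the average of days, with 2 and 3 at an unadjusted p under 0.05. At day 9, 1 of 18 lipid envelope genes was higher in irradiated skin and 1 of 31 regulators lower, Jund, another AP-1 subunit (log2 difference -0.61). On the average of days, Notch1 (0.47) and Keap1 (0.25) were higher in irradiated skin.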

How the data were processed

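The authors prepared 17 skin RNA libraries by the Smart-Seq2 method and read them from both ends on a NovaSeq, per the labels' protocols. Reads were aligned with HISAT2 2.2.1 to mm10, per the submitters' processing notes, and the counting tool and annotation are not given in the sources. The authors deposited FPKM values per gene, without counts. Gene positions of 45 of the 46 genes equal GENCODE M21.

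The FPKM were analysed as log2(FPKM + 1), which understates changes of low genes, for the 15271 genes with at least 1 FPKM in at least 2 libraries. A model with 1 mean per group over all 17 libraries was fitted with limma 3.58.1 (trend, R 4.3.3), with p adjusted over all genes by Benjamini and Hochberg and a threshold of 0.05. The script was tested on simulated data. Replicate numbers were not used to pair the libraries in this model.

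Values in every library of the groups compared are given for members that passed between the arms and for Sprr1a, Sprr1b, Sprr2d, Sprr3, Lor, Flg, Ivl, Tgm1, Tgm3, Rptn and Cnfn. Other members named were singled out after their values were seen. Of the pathway and marker lists, up to 4 passing genes per comparison are named, and some are not reported here. The members and lists were chosen with earlier results of these data known. Promoters are from RefSeq. Alternatives tried: a minimum of 5 FPKM or no filter, a pseudocount of 0.1 or 5, FPKM rescaled to nuclear genes, quantile normalization, a fit of the compared groups, a replicate block, each library left out, and, chosen after seeing the data, limma-voom on recovered fragments.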

Additional observations from a re-analysis of the deposited data

How the results depend on the processing

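The counts of members that passed against day 0 stayed within 1.5 times of those reported under every alternative run. Leaving out each library in turn gave, against day 0, a lowest and highest count of 15 and 19 members for control day 3, 21 and 25 for day 6, 20 and 27 for day 9, and 24 and 27 for irradiated day 9, and limma-voom gave 15, 21, 18 and 20. Leaving out libraries gave 0 to 7 members between the arms on the average of days, 0 at day 3, up to 8 at day 6 (lowest 0) and up to 2 at day 9 (lowest 0), and 0 to 2 between days 3 and 9 in control skin and in irradiated skin. Limma-voom tested 44 members in every comparison, without Tgm1 and Flg2. At day 9 the count between the arms was 0 with a pseudocount of 0.1, with no filter, with a minimum of 5 FPKM (Sprr3 was then not tested), in limma-voom and with only the compared groups fitted. That last fit gave 1 member between the arms at day 3, 3 between control days 9 and 3, and 16 between irradiated days 9 and 3, where no filter gave 1 and a minimum of 5 FPKM gave 1. The percentage of all genes that passed under each alternative is not reported here, and the cause was not tested.

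Of the 46 day 9 differences between the arms, 19 changed sign when 1 day 9 library was left out, 13 of them Lce1 genes, and 27 did not. Among them were those of Ivl (-0.73 to 0.16 over the libraries left out), Flg (-0.56 to 0.18) and Lor (-0.71 to 0.063), with positive values of 0.16, 0.18 and 0.063 without control day 9 replicate 2 and of 0.12 for Flg and 0.043 for Lor without irradiated day 9 replicate 1. Of 1730 gene values under alternatives, 166 lost a call and 5 gained one. Deviations from the group means correlated between same-numbered libraries of a day with r from -0.122 to 0.298. A replicate block gave 20, 29, 23 and 27 members against day 0. With that block, 1 member passed between the arms at day 9, 1 and 2 between days 9 and 3, and 0 otherwise. FPKM scaled to nuclear genes or by quantiles moved the median of all genes at control day 3 from 0.16 to 0.04 and 0.00. Neither scaling reversed any of the 128 gene results followed. Those were members that passed, differences between the arms at an unadjusted p under 0.05, and day 9 differences of the genes given in every library. The signs of other member values, such as small changes that did not pass, were not followed under these scalings. With 2 or 3 libraries a group and copies of one family sharing reads, small differences between single copies are not resolved.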

Other observations

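The 6 genes outside the 46 whose levels most resembled the mean log2(FPKM + 1) of the envelope genes were taken from 7686 protein-coding genes with a mean of at least 5 FPKM. They were Klk9, Klk8 and Klk7, kallikrein proteases of the epidermis, Zdhhc13, a palmitoyltransferase, Gsdma, the gasdermin of epidermal keratinocytes, and Sdr9c7. Pearson's r over the 17 libraries was 0.981 for Klk9, 0.969 for Klk8, 0.969 for Zdhhc13, 0.962 for Gsdma, 0.958 for Klk7 and 0.953 for Sdr9c7. Over the 15 libraries after day 0 it was 0.939, 0.898, 0.907, 0.878, 0.886 and 0.902. These are descriptions over shared libraries.

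Marker lists were counted in the same limma fit. Among all genes tested against day 0, 25.8%, 21.1% and 30.4% were higher at control days 3, 6 and 9, and 12.4%, 14.2% and 18% lower. In irradiated skin at day 9, 29.6% were higher and 16.6% lower. The wound keratins Krt6a, Krt6b, Krt16 and Krt17 were all higher at control days 3 and 6 and in irradiated skin at day 9 against day 0, and 3 of 4 at control day 9, with Krt6b higher by 7.15 on the log2 scale at day 3. Of 6 basal markers, 4 were higher and 0 lower at control day 3, 1 and 1 at day 6, 1 and 3 at day 9, and 4 and 1 in irradiated skin at day 9. Of 6 suprabasal markers, 2 were higher and 1 lower at control day 3, 2 and 0 at day 6, and 2 and 1 at day 9. All 5 skeletal muscle markers were lower on each day. Of 6 fibroblast markers 4 were higher at control day 9, of 5 macrophage markers 1, of 5 neutrophil markers 0 (2 at days 3 and 6), and of 7 inner root sheath markers 7, and 3 of 5 adipocyte markers were lower.

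Between the arms, all 5 red blood cell markers were lower in irradiated skin at day 3 and 4 of 5 at day 6, and 0 passed at day 9. At day 9, 2 of 5 adipocyte markers and 1 of 6 basal markers were higher in irradiated skin and 1 of 7 inner root sheath markers lower. Of all genes, 0.288% and 0.124% were lower at days 3 and 6, and 2.33% were higher and 3.05% lower at day 9. No wound keratin, suprabasal, fibroblast, macrophage, neutrophil or skeletal muscle marker passed between the arms on any of the 3 days. At day 9, though, all 6 basal markers and all 4 wound keratins had positive log2 differences (medians 0.99 and 1.06). Of these, 5 and 2 had an unadjusted limma p under 0.05. Basal markers summed to 10099 to 11025 FPKM in irradiated and 3904 to 8438 in control skin. Wound keratins summed to 8657 to 10007 against 2753 to 6451. All 6 fibroblast differences were negative (median -0.83). The part of these markers in the envelope differences was not tested.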
